A study of Mus musculus with 2 samples.

Results

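Regions of weak but repeated DNase I accessibility in mouse cortex are described here. They are places where both of 2 cortex samples had a peak in the longer of their deposited peak lists and neither had one in the shorter, stricter list. Overlapping longer-list peaks of both samples were merged into 159553 regions, of which 9222 (5.78%) met this rule, covering 1.80 Mb. They are called weak shared regions below. They were set against 44706 strong shared regions, where each sample had a shorter-list peak.

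The samples were left cerebral cortex tissue of male B6CASTF1/J mice aged 2 months, an F1 hybrid strain, with no treatment, no second genotype and no second tissue. The labels number them as biological replicates 1 and 2, from animals 05 and 06, so n = 2 throughout. Each library came from whole tissue, in which fewer cells of a type and less open chromatin per cell cannot be told apart. Both animals stand under 1 donor record of the strain in the labels. The tissue label was checked against defining genes: 12 of 14 pan-neuronal genes, such as Snap25, Map2 and Syt1, had a strong shared region at a promoter, and of 14 liver genes 1 did. Over all coding genes the share was 56.2%. Cortical layer genes had such a region in 14 of 15 cases and inhibitory neuron genes in 10 of 18. Cortical excitatory neuron genes had one in 6 of 14, below the share of all genes, and the other 8 had a shorter-list peak there without a strong region.

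DNase I cuts DNA where nucleosomes have been displaced, mostly at promoters, enhancers and insulators. A transcription factor bound inside such a region can shield a few bases from cutting, which leaves a footprint. CTCF is the factor that binds insulators and the anchors of chromatin loops. The basic helix-loop-helix factors bind E-boxes and AP-1 is the dimer of Fos and Jun proteins, both known at neuronal enhancers. A peak that is low in bulk tissue can be a site open in few cells or open weakly in many.

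Sequences of 7 weak shared regions are printed because they carry the motifs compared below or lie at promoters of genes that define a cell class. All are the plus strand of GRCm38 (mm10), 5′ to 3′, and capitals mark matches, on either strand, to the motifs named for each. Other matches stay in lower case, such as the E-box CAGATGG in Igsf9b and the NFI site TTGGCA, read on the minus strand, in Adcy5. The first 4 lie over 2000 bp from any annotated transcription start site (TSS), in the order Dnm1 (2235 bp away, in no gene), Ap1g2 (intron), Adcy5 (intron) and Igsf9b (intron). Their capitals mark the CTCF core in the first pair, overlapping matches to the RFX site GTTNCCATG in Adcy5, and the MEF2 site CTAAAAATA, read on the minus strand, in Igsf9b.
Dnm1 region, chr2:32308254-32308400: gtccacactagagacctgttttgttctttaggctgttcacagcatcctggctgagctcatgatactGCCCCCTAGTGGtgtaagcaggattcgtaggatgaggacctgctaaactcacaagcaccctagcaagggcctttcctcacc
Ap1g2 region, chr14:55101817-55101930: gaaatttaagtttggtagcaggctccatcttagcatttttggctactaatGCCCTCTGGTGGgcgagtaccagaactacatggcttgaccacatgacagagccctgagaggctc
Adcy5 region, chr16:35160075-35160267: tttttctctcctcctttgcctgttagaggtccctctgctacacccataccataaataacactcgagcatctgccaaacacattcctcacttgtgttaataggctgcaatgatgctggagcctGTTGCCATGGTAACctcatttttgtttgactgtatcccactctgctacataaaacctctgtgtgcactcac
Igsf9b region, chr9:27304839-27305065: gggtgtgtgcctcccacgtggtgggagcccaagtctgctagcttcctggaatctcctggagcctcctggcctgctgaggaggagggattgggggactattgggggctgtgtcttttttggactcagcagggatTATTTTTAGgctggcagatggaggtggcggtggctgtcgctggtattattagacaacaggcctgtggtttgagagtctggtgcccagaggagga
The other 3 lie at promoters, with capitals for the SP and KLF box GGGCGG, the NFI site TTGGCA and the PU.1 site GAGGAAGT.
C1qc promoter, chr4:136892877-136893111: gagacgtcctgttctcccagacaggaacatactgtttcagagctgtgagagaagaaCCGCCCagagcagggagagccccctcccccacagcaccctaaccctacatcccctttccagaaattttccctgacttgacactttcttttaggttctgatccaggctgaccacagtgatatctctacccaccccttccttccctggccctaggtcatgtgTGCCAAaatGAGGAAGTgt
Dlx2 promoter, chr2:71546660-71546917: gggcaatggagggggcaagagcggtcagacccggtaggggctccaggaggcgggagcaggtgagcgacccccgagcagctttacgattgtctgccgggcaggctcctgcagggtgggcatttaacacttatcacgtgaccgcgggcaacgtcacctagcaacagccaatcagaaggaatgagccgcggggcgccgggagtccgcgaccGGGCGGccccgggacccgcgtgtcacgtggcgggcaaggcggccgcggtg
Drd2 promoter, chr9:49340283-49340480: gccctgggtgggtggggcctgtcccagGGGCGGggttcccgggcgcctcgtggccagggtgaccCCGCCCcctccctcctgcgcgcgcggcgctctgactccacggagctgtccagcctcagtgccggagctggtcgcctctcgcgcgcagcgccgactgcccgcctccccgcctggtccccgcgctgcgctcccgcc

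The members were chosen by which of the authors' measured peak lists a peak entered. Peak heights and false discovery rates (FDR) belong to the same peaks, so they are given as a description, without a test. What decides entry to the shorter list was not stated. In replicate 1 the tallest peak of a weak shared region had a median height of 0.410 (quartiles 0.324 and 0.522, range 0.0950 to 1.35). In replicate 2 the median was 0.365 (quartiles 0.290 and 0.459, range 0.0743 to 1.74). Strong shared regions had medians of 1.20 and 0.945. Regions with a shorter-list peak in 1 replicate alone, just outside the rule, lay between, at 0.475 and 0.506. The classes overlapped at their edges: 4 members in replicate 1 and 22 in replicate 2 stood above the strong median.

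Every height was a whole multiple of a step, 0.00432 in replicate 1 and 0.00675 in replicate 2, within 0.05 steps. The median member thus stood 95 steps high in replicate 1 and 54 steps high in replicate 2. The sources do not state what 1 step counts, and the sequencing depth is unknown. The median over members of the lowest FDR inside the region was 0.00712 for replicate 1 and 0.00489 for replicate 2. In strong regions this FDR stayed at or below 0.000996 and 0.000997. An FDR under 0.001 was reached without a shorter-list peak by 839 members in replicate 1, 1363 in replicate 2 and 126 (1.37%) in both. The lowest replicate 1 height, 0.0950, was the same in both classes.

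**Figure D1:**
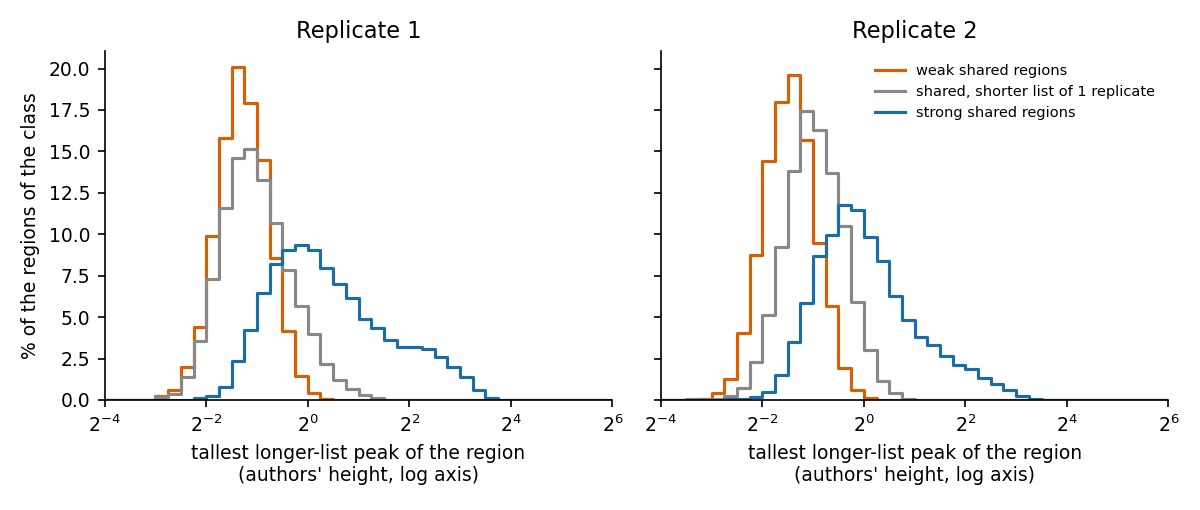
Height of the tallest peak of each region (authors' units, log axis) in replicate 1 (left) and replicate 2 (right), as the percent of regions of each class in each bin. Weak shared regions centre on 0.410 and 0.365, strong shared regions on 1.20 and 0.945, and the curves of the 3 classes overlap.

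Within the weak class, tall in 1 animal went with tall in the other. Spearman's rho of the heights across the 9222 members was 0.751. It was 0.794 across strong regions and 0.228 across regions with a shorter-list peak in 1 replicate alone. These values describe the libraries, whose regions share background and base composition. The classes were formed from the lists that these same peaks entered, the last one by a split between the replicates. The values therefore cannot be compared between classes as measures of agreement. Replicate 2 was lower by a median of -0.18 on the log2 scale, and 30.2% of members were higher in it.

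Of the 10 tallest members, 3 lay at promoters. The tallest by the geometric mean of both replicates stood 9 bp from a start of Igsf8, an immunoglobulin-superfamily membrane protein, with heights of 1.18 and 1.74. A member in an exon of Jph4, a junctophilin that ties the endoplasmic reticulum to the plasma membrane, reached 1.21 and 1.01. The Dnm1 region, near the gene for the dynamin of synaptic vesicle recycling, reached 1.30 and 0.925. These were followed by members at the promoter of the deubiquitinase gene Usp2 (0.989 and 1.18) and 1777 bp from the start of Vamp2, the synaptobrevin of vesicle fusion (0.851 and 1.36). A member 1528 bp from Chrm4, the M4 muscarinic acetylcholine receptor, had 0.993 and 1.05.

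The remaining members among the 10 tallest included one 1970 bp from the microRNA gene Mir9-3, a source of the neural microRNA miR-9, with heights of 0.937 and 1.07; the nearest protein-coding start, that of Polg, was 36740 bp away. An intronic member of Prr7, a postsynaptic protein gene, reached 1.02 and 0.979. The intronic region of Ap1g2, an adaptor subunit of vesicle sorting, reached 1.15 and 0.844. The member over a start of Tmem151a, a membrane protein gene, reached 1.19 and 0.804. Replicate 1 was the higher in 5 of these 10 members and replicate 2 in the other 5.

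Weak peaks of 1 animal overlapped peaks of the other more often than displaced copies of themselves did. Replicate 1 had 46563 longer-list peaks without a shorter-list peak of its own, and 47.9% of them overlapped a longer-list peak of replicate 2 (exact 95% binomial interval 47.5% to 48.4%). The same peaks moved by 10 kb did so in 2.19% of cases. Of 52745 such peaks of replicate 2, 33.0% (32.6% to 33.4%) overlapped a peak of replicate 1, and 1.88% after the move. The moved copies were not matched for base composition or openness, and overlap between the samples is part of the rule. The gap is therefore a description and not a test of repeatability. A shorter-list peak of the other animal was met by 26.9% of the weak replicate 1 peaks (12526 of the 22320 found) and by 14.8% of the weak replicate 2 peaks (7794 of the 17421 found). These are not members. Peaks with a shorter-list peak of their own were found in 83.6% and 77.0% of cases. Intervals here and below are Clopper-Pearson and cover counting error over regions alone, and neighbouring regions are not independent.

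How often a weak peak recurred in the other animal went with its height. From the lowest to the highest 20% of peaks by height, the share of replicate 1 peaks found in replicate 2 went from 25.9% (24.99% to 26.8%) to 59.4% (58.4% to 60.4%). For replicate 2 peaks found in replicate 1 it went from 13.9% (13.3% to 14.6%) to 58.8% (57.9% to 59.8%).

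By location the shares ran in opposite directions in the 2 libraries. Weak replicate 1 peaks were found in replicate 2 less often at promoters, 30.8% (29.7% to 32.0%), than over 2000 bp from any TSS, 53.3% (52.7% to 53.8%). Weak replicate 2 peaks were found in replicate 1 more often at promoters, 55.1% (53.9% to 56.3%), than at distal places, 27.6% (27.2% to 28.1%). With 1 library on each side, this describes the libraries and not a group of animals.

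Most weak shared regions lay away from promoters. Within 500 bp of a TSS lay 11.9% of them (11.3% to 12.6%), against 37.4% of strong shared regions (36.9% to 37.8%) and 3.26% of the known bases of the genome. Introns held 44.5% of members (43.5% to 45.5%) and 28.5% of strong regions (28.1% to 28.9%). Exons held 7.70% (7.16% to 8.26%) and 5.47% (5.26% to 5.68%). Over 2000 bp from every TSS lay 75.1% of members (74.2% to 76.0%) and 53.5% of strong regions (53.1% to 54.0%), and none of these pairs of intervals overlapped. Regions with a shorter-list peak in 1 replicate alone stood between these classes, with 16.3% at promoters, 41.6% in introns and 72.9% distal. Longer-list regions of replicate 1 only were 17.9% at promoters and 65.2% distal, and those of replicate 2 only 8.49% and 81.2%. A lower promoter share than in strong regions was thus not particular to members. The promoter share of members was 8.25% when regions within 500 bp of a shorter-list peak were left out.

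**Figure D2:**
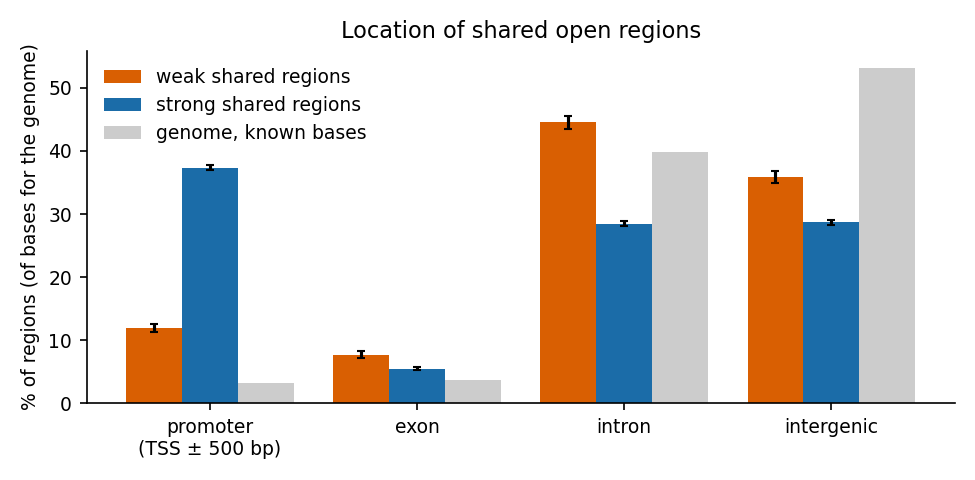
Percent of weak and strong shared regions in promoters, exons, introns and intergenic sequence, with exact 95% intervals, beside the percent of known genome bases (grey). Weak regions are at 11.9% in promoters and 44.5% in introns, strong regions at 37.4% and 28.5%.

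Many members stood near stronger sites. The nearest shorter-list peak of either replicate was a median of 5245.5 bp away, and 24.1% of members had one within 1000 bp. Longer-list regions of replicate 1 only had one within 1000 bp in 38.9% of cases and those of replicate 2 only in 22.0%. Nearness to such peaks was thus not particular to members. The taller a member, the nearer the closest shorter-list peak lay. From the lowest to the highest 20% of members by height the median distance went from 14664 bp to 3015 bp. Members were also narrower, with a median width of 187 bp against 260 bp for strong regions.

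Weak shared regions at promoters were poorer in CpG dinucleotides than strong ones. CpG observed over expected, which is near 1 where CpGs have not been depleted, had a median of 0.394 over the 1101 members at promoters and 0.780 over 16698 strong promoter regions. At 0.6 or above were 21.2% of the former and 73.2% of the latter. Promoter regions with a shorter-list peak in 1 replicate alone had a median of 0.588. The ratio is that of the region and not of the whole promoter. Members at promoters lay a median of 733 bp from a shorter-list peak. Of 811 coding genes with such a member, 586 also had a strong region at a promoter. Away from promoters the medians were close, 0.252 in members and 0.269 in strong regions. Few members were sequence with several copies: in 139 of 9222 members (1.51%) at least 50% of the 25-base words occurred several times in the genome, against 0.969% of strong regions.

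Weak and strong regions were also compared in the same band of height. Intervals of the promoter shares overlapped in 3 of 4 bands, and those of the footprint and CTCF shares in none. The bands were added after the data were seen. For a geometric mean height of 0.4 to 0.5, 12.5% of 2195 members lay at promoters (11.2% to 14.0%) and 14.6% of 2277 strong regions did (13.2% to 16.1%), with overlapping intervals. A footprint in both replicates was present in 54.8% of these members (52.7% to 56.9%) and in 79.5% of these strong regions (77.8% to 81.1%). At distal places in this band the CTCF core was present in 3.80% of members (2.93% to 4.85%) and in 6.41% of strong regions (5.31% to 7.65%). AP-1 was present in 14.2% (12.5% to 15.95%) and 16.6% (14.8% to 18.4%). In the 4 bands from 0.3 to 0.8 the intervals of footprints and of the CTCF core did not overlap between the classes, and those of promoters overlapped in 3. The promoter share of members was nevertheless the lower one in every band, from 11.5% against 14.6% at 0.3 to 0.4 to 16.7% against 19.8% at 0.6 to 0.8. An overlap of intervals does not show equal shares. Members of the band from 0.4 to 0.5 had a median width of 188 bp and a median distal GC content of 51.8%, and strong regions 279 bp and 48.3%. The part these have in the differences was not tested.

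**Figure D3:**
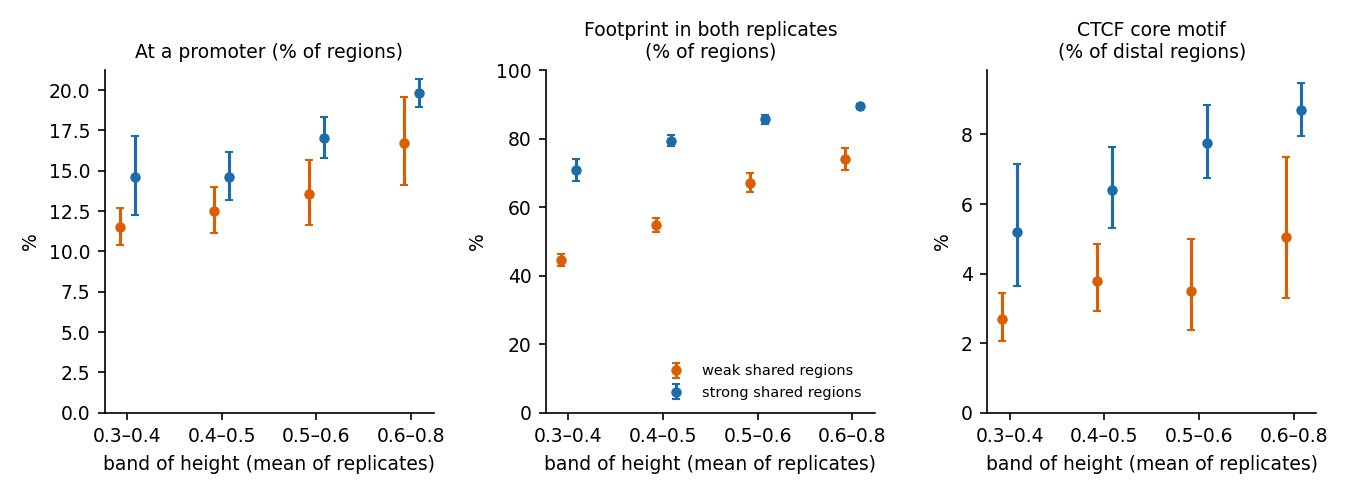
Promoter share, share with a footprint in both replicates and share of distal regions with the CTCF core in 4 bands of height (geometric mean of both replicates, authors' units), with exact 95% intervals. In every band weak regions lie below strong regions in each share, for example 54.8% against 79.5% for footprints at 0.4 to 0.5. The promoter intervals overlap in 3 of the 4 bands.

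Footprints were frequent in weak regions and uneven between the libraries. A deposited footprint overlapped 78.7% of members in replicate 1 (77.9% to 79.5%) and 58.0% in replicate 2 (57.01% to 59.0%). Both replicates had one in 47.2% (46.2% to 48.2%) and neither in 10.5% (9.88% to 11.1%). Strong regions had one in both in 93.3% (93.1% to 93.5%), and regions with a shorter-list peak in 1 replicate alone in 68.6% (68.0% to 69.3%). Per kb of region, members held 7.20 footprints in replicate 1 and 4.51 in replicate 2, and strong regions 12.5 and 10.8. With height the share of members with a footprint in both went from 18.05% in the lowest 20% by height to 71.7% in the highest.

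Distal members held the CTCF core less often than strong distal regions, and the AP-1 site at a share whose interval overlapped theirs. Matches on either strand were sought in the 200 bp around the centre of 6923 distal members, 23938 strong distal regions and 13278 windows 5 kb from the members. The CTCF core was present in 3.29% of members (2.89% to 3.74%), 12.2% of strong regions (11.8% to 12.6%) and 0.0603% of the windows. In a 100 bp window the share of members was 3.09%. With 200 bp, distal regions with a shorter-list peak in 1 replicate alone had 5.17% (4.81% to 5.54%). Distal longer-list regions of replicate 1 only had 2.56% and those of replicate 2 only 0.706%.

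The AP-1 site TGANTCA was present in 15.3% of members (14.4% to 16.2%), 14.9% of strong regions (14.5% to 15.4%) and 5.84% of the windows. The NEUROD-type E-box CAGATGG was present in 10.2% (9.51% to 10.9%), 11.0% (10.6% to 11.4%) and 4.80%. For both motifs the intervals of members and strong regions overlapped, and members stood above the windows beside them. The AP-1 share was not alike in all distal classes. It was 19.1% (18.4% to 19.7%) in distal regions with a shorter-list peak in 1 replicate alone. Distal longer-list regions of replicate 1 only had 8.59% (8.15% to 9.04%) and those of replicate 2 only 19.6% (19.2% to 20.1%). For the NEUROD-type E-box the shares of these classes were 11.6%, 7.19% and 10.5%. In a 100 bp window the intervals for the NEUROD-type E-box separated, with 6.30% in members (5.74% to 6.90%) and 7.42% in strong regions (7.09% to 7.76%), while those for AP-1 still overlapped.

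The other E-box, CAGCTG, of the ASCL and TCF kind, was in 21.9% of members (20.96% to 22.9%) and 19.7% of strong regions (19.2% to 20.2%). The NFI site TTGGCA was in 20.7% (19.8% to 21.7%) and 18.7% (18.2% to 19.2%). In both cases the share of members was the higher and the intervals did not overlap. Shares of the GC-rich box GGGCGG were 7.92% (7.29% to 8.58%) and 9.92% (9.54% to 10.3%), the lower one in members. The NRF1 site GCGCATGCG was in 0.144% (0.0693% to 0.265%) and 0.405% (0.329% to 0.494%), and the cyclic AMP response element TGACGTCA in 0.318% (0.199% to 0.481%) and 0.568% (0.477% to 0.672%). The RFX site had 2.92% (2.53% to 3.34%) and 3.44% (3.21% to 3.68%), and MEF2 0.823% and 0.957%, with overlapping intervals. A match is a run of letters and not a bound site, and the windows had a lower mean GC content (44.3%) than the members (50.4%).

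**Figure D4:**
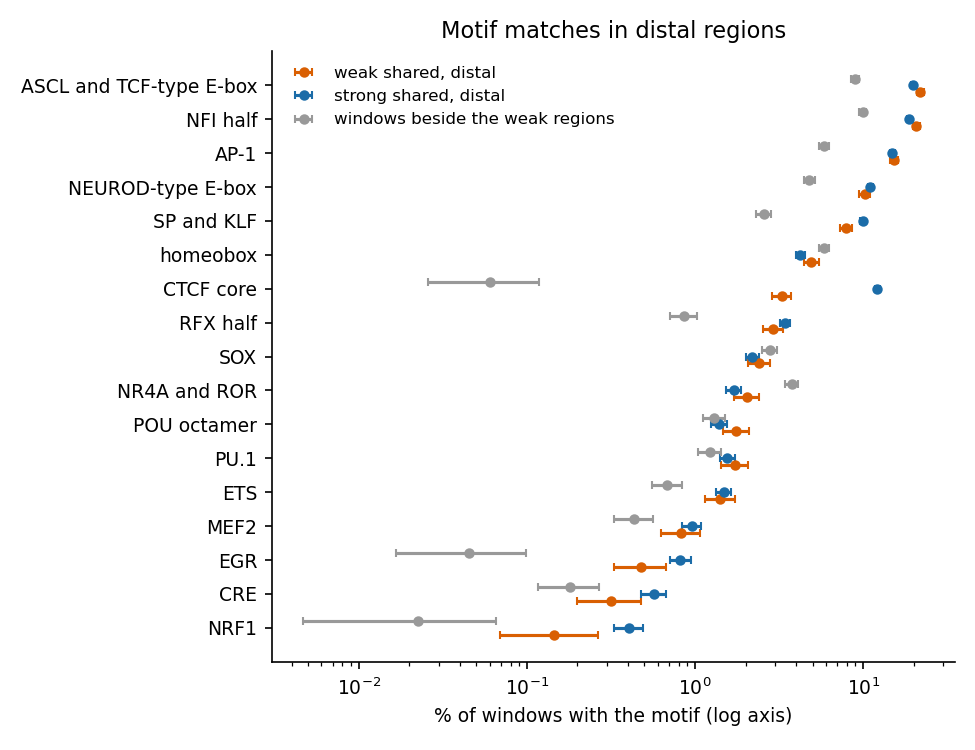
Percent of 200 bp windows with each motif (log axis) at distal weak shared regions, distal strong shared regions and windows 5 kb from the weak ones, with exact 95% intervals. The widest gap between weak and strong regions is at the CTCF core, 3.29% against 12.2%, and the AP-1 points nearly coincide.

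CTCF matches in members were less often footprinted in both animals than those in strong regions. Of 228 CTCF core matches in members, 79.4% overlapped a footprint in replicate 1 and 36.0% in replicate 2, and 30.7% did in both (24.8% to 37.1%). Of 2937 matches in strong regions, 91.9% did in both (90.9% to 92.9%). Over any base of the windows the shares for both replicates were 0.925% in members and 8.93% in strong regions. The Dnm1 and Ap1g2 regions printed above are members whose CTCF match was footprinted in both. NEUROD-type E-box, AP-1 and NFI matches in members were footprinted in both in 5.73%, 2.66% and 3.18% of cases. In strong regions these shares were 33.7%, 14.6% and 19.7%, so the lower share in members was not particular to CTCF. The overlapping RFX sites of Adcy5, an adenylyl cyclase gene, and the MEF2 site of Igsf9b, a synaptic adhesion gene, had a footprint in both. Members were also picked by a motif in the central 200 bp and a footprint anywhere in both animals. The one picked for AP-1, in an exon of Cntnap1, the contactin partner of axons, had heights of 0.945 and 0.858. The one picked for the NEUROD-type E-box, in an intron of Rasa3, a Ras GTPase activator, had 0.833 and 0.966. Neither had a footprint over that motif.

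At promoters, the weak class was the only shared accessibility of few genes. Of 21938 protein-coding genes, 811 had a member within 500 bp of a TSS, and 586 of these also had a strong region at a promoter. For 160 genes (0.729%; interval 0.621% to 0.851%) members were the only shared regions there and no shorter-list peak touched any of their starts. Of 426 listed genes of 28 lists of cell types, receptors and tissues, 8 were among the 160 (1.88%; 0.814% to 3.67%), and the 2 intervals overlapped. The count of 160 was 88 when the lowest 20% of each longer list was left out.

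The 8 included regulators of cell classes. The promoter of Dlx2, a homeobox factor of inhibitory neurons, had heights of 1.20 in replicate 1 and 0.689 in replicate 2, with 3 footprints in replicate 1 and 0 in replicate 2. Of the microglial genes among them, C1qc, a chain of complement C1q, stood at 0.579 and 0.560, and Spi1, which encodes the factor PU.1, at 0.492 and 0.405, at an annotated start inside the gene. Aqp4, the water channel of astrocyte endfeet, was lowest at 0.289 and 0.196, also at an annotated start inside the gene. Of the 15 microglial genes, 3 had a strong promoter region, 2 had members alone, 4 a longer-list peak of 1 replicate and 6 none. Over all coding genes 56.2% had a strong region, 3.52% a longer-list peak of 1 replicate and 33.2% none.

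Receptor and peptide genes made up most of the rest. Htr1f, a serotonin receptor, had 0.492 and 0.412, Pdyn, the precursor of dynorphins, 0.462 and 0.351, and Drd2, the dopamine D2 receptor, 0.307 and 0.297. A Hox gene, Hoxa10, which patterns the posterior body axis, had 0.544 and 0.270; 14 of the 16 Hox genes had no longer-list peak at a promoter and none had a strong region, against the 33.2% and 56.2% of all coding genes. In all 8 genes replicate 2 was the lower, as it was in most members at promoters, of which 20.4% were higher in replicate 2. The SP and KLF boxes in the printed Drd2 and Dlx2 promoters had no footprint in either animal. The same held for the SP and KLF, NFI and PU.1 matches in the printed C1qc promoter.

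Beyond the lists, the tallest member-only promoters after Tmem151a were those of Pcdhgc4, a clustered protocadherin (1.09 and 0.871), and, after Dlx2, Madcam1, an adhesion molecule (1.10 and 0.628). Doc2a, a calcium sensor of transmitter release, stood at 0.764 and 0.628. Slc30a3, the zinc transporter of glutamatergic vesicles, stood at 0.786 and 0.520. The Doc2a and Slc30a3 members lay at annotated starts inside the gene. Kcnk9 and Kcna5, both potassium channel genes, stood at 0.579 and 0.601 and at 0.652 and 0.493. These genes were picked from the top of the member-only promoters after their values were seen.

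Distal members were then counted around genes. A locus was the gene with 20 kb on both sides. Of the protein-coding genes, 4102 (18.7%) had a distal member in the locus, and 1123 of these had no strong distal region. Most members per locus fell in Gm20388 (30), Fgfr2 (22) and Gm37240 (12), whose annotated spans hold 71, 29 and 6 other coding genes and so count their neighbours' regions. Next came Lsamp, a neuronal adhesion gene of 2197 kb, with 10 members, heights 0.246 to 0.371 in replicate 1 and 0.236 to 0.4997 in replicate 2. Cacna1c, the pore of an L-type calcium channel and 609 kb long, had 9 members beside 10 strong regions, with heights of 0.380 to 0.566 and 0.216 to 0.513, and 3 of them had a footprint in both replicates. Camta1, a calmodulin-binding factor gene whose span holds 4 other coding genes, had 9 beside 16 strong regions. Anks1b, Atxn1, Cdh13 and Celf2 had 7 each, and in Atxn1 this equalled the number of strong regions. These counts were not corrected for the length of the locus, and the 7 genes from Lsamp on span 415 to 2197 kb.

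Weak and strong distal regions were also counted in the loci of each gene list, with no test between lists. Over all coding loci, members made up 22.2% of the 20371 weak and strong distal regions (21.7% to 22.8%). In loci of pan-neuronal genes it was 17 of 44, or 38.6% (24.4% to 54.5%), with 7 members at Rbfox3, the gene of the neuronal marker NeuN, and 2 each at Map2, Snap25 and Elavl3. Glutamate receptor and postsynaptic genes had 36 of 127 (28.3%; 20.7% to 37.0%), among them 6 at Grik4 and 5 at Shank2, and voltage-gated channel genes 41 of 154 (26.6%; 19.8% to 34.3%). Oligodendrocyte genes, which include myelin genes such as Mbp and Mog, had 1 of 31 (3.23%; 0.0816% to 16.7%), and that member lay at Mbp. Immediate early genes, such as Fos, Egr1 and Npas4, had 3 of 37 (8.11%; 1.70% to 21.9%), and astrocyte genes 3 of 30 (10%; 2.11% to 26.5%). High shares were not limited to neuronal lists, though several of the others held few regions. Liver genes had 4 of 9 (44.4%), Hox genes 2 of 5 (40%), muscle and heart genes 4 of 11 (36.4%) and circadian clock genes 11 of 41 (26.8%). Germ cell genes had 1 of 5 (20%), housekeeping genes 3 of 18 (16.7%) and blood cell genes 0 of 7.

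The median number of distal members per locus was 1 in the pan-neuronal, glutamate receptor, channel and striatum lists and 0 in the others and over all coding genes. The intervals of the pan-neuronal and oligodendrocyte lists did not overlap that of all loci, among 28 lists compared without adjustment. The intervals of the other lists overlapped it. From the shortest to the longest 20% of genes the share in all loci went from 18.3% to 23.9%, and the part gene length has in the list values was not tested.

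**Figure D5:**
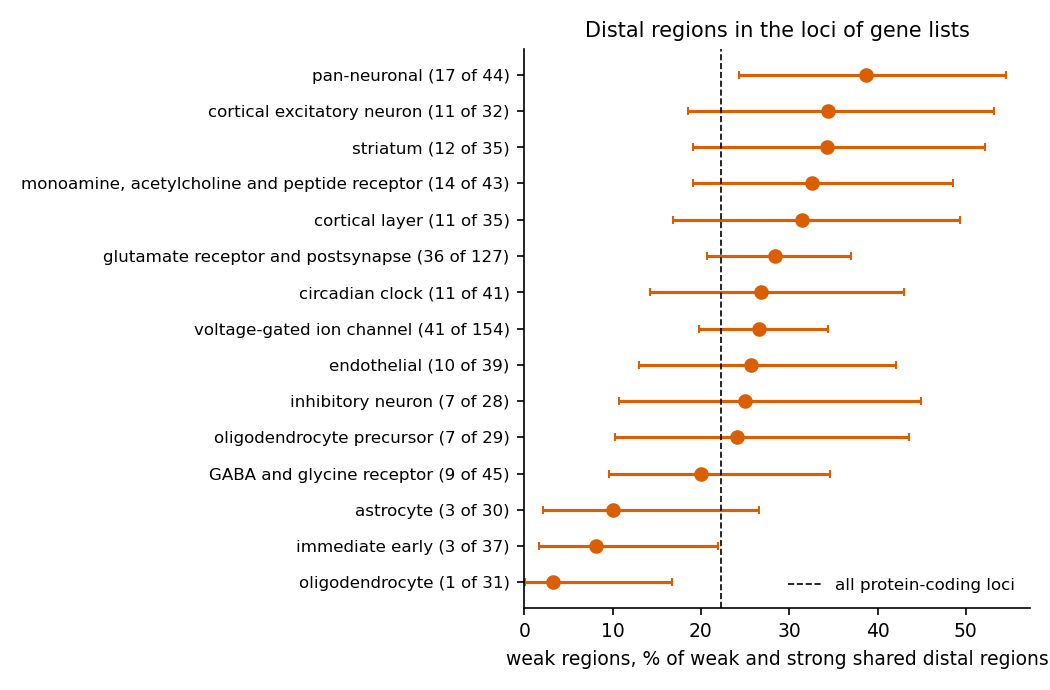
Weak regions as a percent of weak and strong shared distal regions in the loci of each gene list with at least 25 such regions, with exact 95% intervals and counts in brackets; the dashed line is all protein-coding loci, 22.2%. Among the lists drawn, pan-neuronal loci are highest at 38.6% and oligodendrocyte loci lowest at 3.23%.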

How the data were processed

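DNase-seq of 2 samples in 1 group was used. Peak heights are a signal the authors deposited, on mm10 per the labels, from each replicate's own alignment per the deposited notes. The deposited FDR track gives p-values adjusted by the authors (false discovery rates) for stretches of bases under 0.05, and the deposited footprint lists give positions without a usable score. The aligner, the peak and footprint callers, their settings, any correction for cutting preference and what tells the longer from the shorter list were not stated in the labels or files used. No read counts were used, so depth is unknown and limits to its precision could not be computed. Of the footprints, 88.1% in replicate 1 and 92.0% in replicate 2 lay in longer-list peaks.

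Overlap meant 1 bp or more. Sequence came from GRCm38.p6, whose lengths held all peaks on 21 of 21 chromosomes, and genes from GENCODE M21. Shares have exact Clopper-Pearson 95% intervals (scipy 1.17.1), and no test between groups was possible with 1 group. Overlap, distance and motif searches were tested on simulated data with known answers. Regions, lists and motifs were chosen with earlier results of these data known, and 1 of 427 listed genes had no match. Named genes were the 10 tallest members with under 50% of 25-base words in several copies, listed genes open through members alone, the 10 coding genes with most members, and, for each of 5 motifs in the central 200 bp, the tallest distal member that lay in a gene or within 50 kb of a listed gene and had a footprint in both replicates. A further 6 member-only genes, Pcdhgc4 to Kcna5, were picked after their values were seen. Alternatives changed the overlap, the height minimum, the distance to shorter-list peaks, repeats, TSS windows and the replicate used.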

Additional observations from a re-analysis of the deposited data

How the results depend on the processing

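Of 50 alternative values of the main results, 22 stayed within 1.5 times a count or within the interval of a share, and 28 moved. Requiring an overlap of 50% of the shorter peak moved the shares of weak peaks found in the other replicate to 44.5% and 30.6%. Leaving out the lowest 20% of each longer list gave 5870 members, 13.0% at promoters, 72.6% distal, 51.5% and 40.9% found in the other replicate, 58.8% with a footprint in both, 88 member-only genes and a median CpG ratio of 0.280. Without regions within 500 bp of a shorter-list peak the values were 8.25% at promoters, 80.3% distal, 52.4% and 32.4% found, and a CpG ratio of 0.259. Without regions in several copies 49.1% of replicate 1 peaks were found in replicate 2. Promoters of 2000 bp on both sides held 24.9% of members and of 200 bp 7.16%, and 47.9% lay over 10000 bp from a TSS, as the wider or narrower windows imply. Using 1 replicate alone drops the need for a second peak: the number of regions was 46190 without replicate 2 and 52392 without replicate 1, the promoter share 13.5% and 12.8%, the distal share 72.5% and 75.1%, the share with a footprint in the replicate kept 69.7% and 48.1%, the member-only genes 931 and 1039, and the CpG ratio 0.274 and 0.240. The shares found in the other replicate could not be computed from 1 replicate. In a 100 bp window, 13 of 17 motif shares moved, all downwards. No paired analysis was possible because there was only 1 group. No read counts were used, so what depth limits could not be measured.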

Other observations

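Some members lay at starts of genes that make no protein. Of the 1101 members at promoters, 268 lay at starts of non-coding gene types alone. Members were the only shared promoter accessibility of 76 of 5854 lincRNA genes (1.30%; exact 95% interval 1.02% to 1.62%) and of 46 of 2959 antisense genes (1.55%; 1.14% to 2.07%), against 160 of 21938 protein-coding genes (0.729%; 0.621% to 0.851%). As shares of all genes of a class, the lower bounds of both non-coding classes lay above the upper bound of the protein-coding one. By the rule, a gene with a shorter-list peak at any start was not counted as member-only. Strong regions alone removed 56.2% of protein-coding genes in this way, against 13.6% of lincRNA and 25.2% of antisense genes. Shares among the genes left were not tested, so no excess in non-coding genes is concluded.

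Chromosome X held 1.30 weak shared regions per Mb, against an autosome median of 3.73 (range 3.08 to 5.03). Strong shared regions were sparse there to a like degree, at 0.372 of the autosome median against 0.348 for members. Members made up 15.8% of weak and strong regions on X, within the range over autosomes of 15.2% to 19.1%. Members on X were also lower, with median heights of 0.240 in replicate 1 and 0.219 in replicate 2. Medians of the autosomes ran from 0.363 to 0.466 and from 0.338 to 0.398. The animals were male, and the part that X copy number has in these values was not tested.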
